A study of Mus musculus with 15 samples.

Results

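Apoa1, Apoa2, Apoa4, Apoa5, Apob, Apoc1, Apoc3, Apoe, Apoh and Mttp, 10 genes of apolipoproteins and lipoprotein assembly, were followed by name, out of 21755 protein-coding genes. A gene was called marked when an H3K4me3 island lay within 1 kb of any of its annotated transcription start sites (TSSs), and at least 1 island was found for all 10 genes over the series. H3K4me3 had been profiled by PAT-ChIP, a form of chromatin immunoprecipitation for tissue kept in formalin and paraffin, in the livers of 15 wild-type female mice, C57BL/6 by the labels and C57BL/6J by the study's methods, with 1 library per mouse and 3 mice per diet. The diets were a standard diet (SD), caloric restriction (CR, a reduced daily amount of the standard food), a high-fat diet (HF), and 2 diets in which the maize of the standard food was replaced by yellow corn without anthocyanins (YD) or by near-isogenic purple corn rich in anthocyanins (RD). All but the CR mice ate ad libitum. The labels give an age of 12 months, and the study's design gives a start at 3 months and 10 months of feeding. The litter of each mouse was not given. Mice are written as the diet and a replicate number (SD_1).

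H3K4me3, trimethylated lysine of the histone H3 tail, is laid down around the start of genes that are transcribed or poised. Apolipoproteins are the proteins that coat lipoprotein particles and direct them to enzymes and receptors, and the liver makes most of those in plasma. Hepatocytes build very low density lipoprotein on apolipoprotein B, into which the microsomal triglyceride transfer protein (Mttp) loads lipid, and the other apolipoproteins join these particles or form high density lipoprotein. Several of the genes lie in tandem clusters of related sequence.

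The sequence before the start held 8 CpGs at Apoe and 7 at Apob, marked in every liver, and 0 at Apoa4, marked in few. These windows differ in length, with 250, 221 and 102 bases, and none was at hand for Apoc3, also marked in every liver. The counts of the other genes did not follow the marking. Apoa2 (2 CpGs), Apoa5 (3) and Apoh (3) were marked in 14 livers, and Apoa1 (3) in 11. Mttp had 25, and its first TSSs were marked in 10. CpG dinucleotides are shown because promoters rich in them are often marked by H3K4me3, and they are printed in capitals. The windows come from RefSeq (GRCm38.p6, the mm10 build), are written 5′ to 3′ on the gene's strand and stop at the first annotated exon of a coding transcript of the gene. They cover chr7:19699189-19699438 on the minus strand for Apoe and, on the plus strand, chr12:7977427-7977647 for Apob, chr9:46228380-46228579 for Apoa1 and chr9:46240594-46240695 for Apoa4.
Apoe: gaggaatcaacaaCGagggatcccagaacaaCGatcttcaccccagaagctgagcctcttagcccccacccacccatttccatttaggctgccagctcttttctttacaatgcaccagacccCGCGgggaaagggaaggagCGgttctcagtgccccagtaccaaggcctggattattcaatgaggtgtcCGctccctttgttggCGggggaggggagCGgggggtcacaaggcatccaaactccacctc
Apob: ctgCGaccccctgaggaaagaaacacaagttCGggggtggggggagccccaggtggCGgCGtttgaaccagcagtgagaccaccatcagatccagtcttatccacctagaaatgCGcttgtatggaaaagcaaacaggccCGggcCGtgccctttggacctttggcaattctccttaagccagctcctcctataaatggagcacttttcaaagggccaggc
Apoa1: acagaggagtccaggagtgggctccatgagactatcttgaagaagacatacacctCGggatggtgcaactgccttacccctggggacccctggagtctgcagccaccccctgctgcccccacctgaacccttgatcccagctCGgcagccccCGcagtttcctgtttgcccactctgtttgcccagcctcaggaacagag
Apoa4: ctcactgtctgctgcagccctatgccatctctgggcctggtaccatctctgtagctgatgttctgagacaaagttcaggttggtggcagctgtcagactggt

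The RefSeq table held the promoter of 8 of the 10 genes, all but Apoc1 and Apoc3. In the whole window of 300 bases around the RefSeq start, Mttp had 27 CpGs, Apoe 10, Apob 9, Apoh 5, Apoa1 and Apoa5 4 each, Apoa2 3 and Apoa4 1, where the median of 17274 coding promoters was 14. The Mttp window lies at the first TSSs of the gene, which were marked in 10 livers. Its TSS at 138131377, marked in 13 livers, was not read for CpGs or motifs. Of all promoters with 3 to 9 CpGs, 3.40% were marked in all 15 livers and 57.8% in none, against 16.4% and 12.9% of those with 20 or more. Apob was thus among the 3.40% of its CpG class, and Apoa2, Apoa5 and Apoh, which also have 3 to 9, were marked in 14 livers, where 5.96% of the class were marked in at least 14. Apoa1, in the same class, was marked in 11. The TATA box letters (TATAAA, searched on both strands) were present in the windows of Apoa2, Apoa5 and Apob and in 13.4% of all promoters. The letters TGTTTAC, a core of forkhead (FOXA) motifs, were found in Apoa2 and Apoh and in 2.98% of all, TTGCNNAA (CEBP palindrome) in Apob and 10.3%, and the GC box GGGCGG in Mttp and 46.9%. No window of the 8 genes held the HNF4 core CAAAGTCC (1.46% of all promoters), the direct repeat of AGGTCA with 1 base between the copies (0.0521%) or its looser form with GGNCA (0.77%).

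The 15 lists held 7825 to 33752 islands, and 5589269 to 15449854 reads lay behind a list as recovered from the scores. The YD lists were the shortest on average, with 9379 ± 1541 islands (SD, n = 3). The share of coding genes that were marked ran from 17.5% in YD_3 to 54.6% in HF_1. Hepatocyte markers were marked in 6 to 10 of 10 genes per library, and enterocyte markers in none of 5. Markers of endothelial cells were marked in 5.33 of 7 genes on average in HF, 2.33 in SD and 0 in YD, and those of Kupffer cells in 2 of 8 in HF and 0.333 in SD. The part of these differences in depth, list length and cell make-up in the results that follow was not tested. In bulk liver, fewer cells that carry a mark and less mark per cell cannot be told apart.

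All or nearly all of the liver's major apolipoprotein genes carried H3K4me3 in most mice. Of the 10 genes, 9, 8 and 9 were marked in the 3 SD mice, 8, 9 and 10 in CR, 10, 9 and 10 in HF, 9, 9 and 5 in YD and 8, 8 and 8 in RD. Apoe, Apob and Apoc3 were marked in all 15 livers, as were 9.46% of coding genes, and Apoa2, Apoa5, Apoc1, Apoh and Mttp in 14. At least 14 livers were reached by 8 of the 10 genes and by 16.5% of coding genes. Mttp reached 14 through RD_1, where its only island is shared with Trmt10a, and its TSS at 138131377 was marked in 13. Apoa1 was marked in 11 livers and Apoa4 in 3, CR_3, HF_1 and HF_3, and 51.5% of coding genes were marked in at least 3. A single liver, YD_3, accounted for most of the gaps elsewhere, since it lacked an island at Apoa1, Apoa2, Apoa4, Apoh and Mttp, and it is also the liver with the fewest marked genes.

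**Figure D1:**
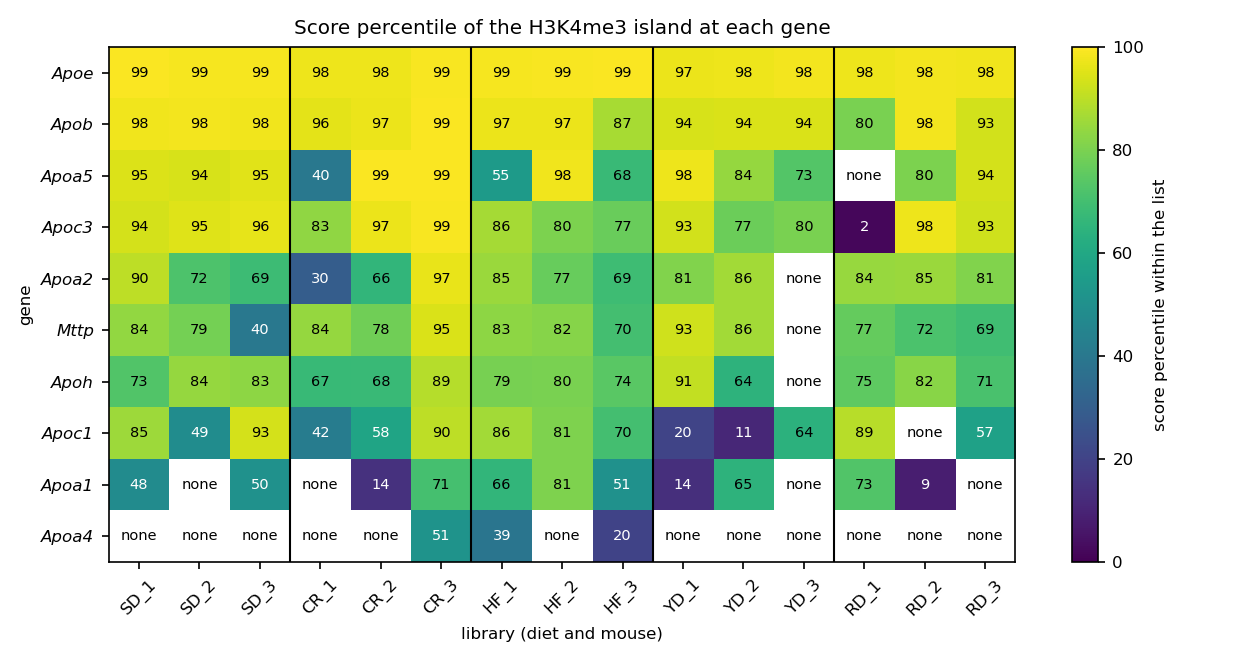
Score percentile of the highest-scoring H3K4me3 island within 1 kb of a TSS of each gene (rows) in each of the 15 libraries (columns, grouped by diet), as a percent of the islands in the same list, with "none" where no island lay there. Apoe stays between 96.9 and 99.5 in every liver, while Apoa1 is absent from 4 livers and Apoa4 from 12.

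An island's score adds up the natural-log Poisson significance of its windows and is not scaled between libraries, so the percentile within its own list was compared, with 100 for the highest score. Apoe, the ligand by which remnant particles bind the LDL receptor family, had the highest median percentile of the 10. Its percentile was 99.3, 98.5 and 98.8 in SD, 97.6, 97.6 and 99.2 in CR, 98.8, 99.0 and 99.5 in HF, 96.9, 97.6 and 98.1 in YD, and 97.6, 98.4 and 97.9 in RD. Every SD and HF mouse was above every YD and RD mouse, while CR overlapped all the other diets. Over the 15 livers its island ranked between 71 and 506 in its list, and only 0.372% of coding genes had a higher median percentile. The island spanned 4.8, 4.2 and 3.8 kb in SD, 2.6, 3.6 and 5.0 kb in CR, 4.6, 5.6 and 7.4 kb in HF, 4.8, 3.0 and 3.8 kb in YD, and 2.4, 4.0 and 4.4 kb in RD. A TSS of Apoe lay inside the island in all 15 livers, and islands covered a median of 100% of the 3.08 kb gene (range 77.9% to 100%). The 2400 bases common to all 15 islands, chr7:19696601-19699000, ran from exon 2 to exon 4 of a coding transcript of 4 exons and were 30.8% exonic.

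Apob encodes the structural protein of very low density lipoprotein, and its island came next. The percentile was 98.0, 98.3 and 97.9 in SD, 95.9, 97.0 and 99.5 in CR, 97.1, 97.2 and 87.0 in HF, 94.1, 94.2 and 94.5 in YD, and 79.9, 98.3 and 93.3 in RD. The 3 YD values lay close together below all SD and CR values, whereas the RD values were spread widely. The island was 5.0, 4.6 and 4.8 kb wide in SD, 4.0, 4.6 and 4.6 kb in CR, 5.2, 4.4 and 4.4 kb in HF, 4.8, 3.2 and 2.6 kb in YD, and 1.8, 4.0 and 3.8 kb in RD. Only 0.552% of coding genes had a larger median width than the 4.4 kb of Apob. The gene is 39.2 kb long, so the island was a 5′ feature that covered 6.63% to 13.1% of it. The shared bases, chr12:7978001-7979400, reached exons 2 and 3 of 29 and were 11.1% exonic. All islands stood at the TSSs between 7977648 and 7977779, and none at the annotated start at 8012359.

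Mttp, the lipid loading partner of Apob, was marked at 2 places. The TSS at 138131377 on chromosome 3, inside the gene, was marked in 13 livers, and the first TSSs of the gene, between 138143388 and 138144968, in 10. The first TSSs were marked in 2 SD, 3 CR, 3 HF and 2 RD mice and in no YD mouse. They face the start of Trmt10a, a tRNA methyltransferase gene on the other strand, so an island there cannot be assigned to Mttp alone. The highest island of the gene had percentiles of 83.7, 79.1 and 39.9 in SD, 84.3, 78.3 and 94.5 in CR, 82.8, 81.8 and 70.1 in HF, 92.9 and 86.3 in YD_1 and YD_2 (YD_3 had none), and 76.5, 71.7 and 69.4 in RD. Widths were 1.2 to 4.8 kb, with a median of 2.6 kb. The diets overlapped in both measures.

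Among the A apolipoproteins, Apoa5, a regulator of plasma triglyceride, carried the strongest islands. Its percentile was 94.6, 93.8 and 95.4 in SD, 40.1, 99.3 and 99.5 in CR, 54.7, 97.9 and 67.6 in HF, 97.5, 84.0 and 73.1 in YD, and 80.4 and 93.7 in RD_2 and RD_3. RD_1 had an island over the 3′ part of the gene that lay over 1 kb from its TSSs and was not counted. Widths ran from 2.2 to 7.2 kb, and the widest islands, in CR_2, CR_3 and HF_2, reached within 1 kb of a TSS of the next gene, Zpr1. The Apoa5 island was shared with Zpr1 in 6 of 14 livers. The bases common to all Apoa5 islands, chr9:46269401-46271000, were 77.1% exonic and reached the last of 4 exons.

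Apoa2, the second protein of high density lipoprotein, had percentiles of 90.0, 72.0 and 68.6 in SD, 29.6, 65.6 and 96.8 in CR, 84.9, 76.9 and 69.1 in HF, 81.0 and 86.3 in YD_1 and YD_2, and 84.5, 85.0 and 80.9 in RD. The 3 RD mice lay closer together than the 3 mice of SD, CR or HF. Apoa1, the main protein of high density lipoprotein, stood far lower. Its percentile was 48.4 and 50.5 in SD_1 and SD_3, 14.1 and 70.6 in CR_2 and CR_3, 65.7, 80.7 and 50.6 in HF, 13.7 and 64.6 in YD_1 and YD_2, and 72.9 and 8.54 in RD_1 and RD_2, with no island in SD_2, CR_1, YD_3 and RD_3. HF was the only diet with an Apoa1 island in all 3 mice. Where present, the island was 1.4 to 3.0 kb wide, and the 1000 bases common to the 11 islands, chr9:46228801-46229800, began downstream of the TSS at 46228580 and included exons 2 and 3 of 4. Apoa4, which is made mainly in the intestine in many mammals and whose hepatic level varies with diet and strain, had islands of 0.8, 1.2 and 1.6 kb in CR_3, HF_1 and HF_3, at percentiles of 51.3, 38.9 and 20.2. Gm47528, an unclassified transcript on the other strand, overlaps Apoa4 there.

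Apoc3 encodes an inhibitor of lipoprotein lipase and of remnant uptake. Its percentile was 93.7, 95.2 and 96.4 in SD, 83.4, 97.0 and 98.8 in CR, 86.4, 80.3 and 77.0 in HF, 93.3, 77.3 and 79.7 in YD, and 1.58, 97.6 and 92.8 in RD. RD_1 stood apart, with an Apoc3 island of 0.8 kb near the bottom of its list, although its Apoe island ranked as in the other RD mice. The island covered a median of 91.3% of the 2.70 kb gene. Apoc1, an exchangeable protein of both lipoprotein classes, was more variable. It had percentiles of 85.4, 48.5 and 93.4 in SD, 41.8, 58.5 and 90.1 in CR, 86.3, 80.8 and 70.3 in HF, 20.3, 11.1 and 64.1 in YD, and 89.3 and 57.3 in RD_1 and RD_3. The diets overlapped, with the lowest values in YD_1, YD_2 and RD_2, where no island was found.

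Apoh encodes beta-2-glycoprotein I, a plasma protein that binds phospholipid. Its TSS at 108395293 on chromosome 11 was marked in 14 livers, all but YD_3, with islands of 0.6 to 3.2 kb. A TSS at 108343354 was marked in all 9 SD, CR and HF mice, in 1 YD mouse and in 1 RD mouse. That start lies inside the 5′ end of Prkca, a kinase gene on the other strand, and cannot be told apart from it, and in SD_2, CR_1, CR_2 and HF_3 it held the highest island counted for Apoh. The annotated starts at 108381164 and 108381169 were marked in no liver. The percentile of the highest island ran from 64.5 to 90.9 where there was one, a narrow range beside that of Apoc1 or Apoa1.

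The order of the 10 genes depended on the scale. By score percentile, which grows with width, the medians over the livers with an island were 98.4 for Apoe, 97.0 for Apob, 93.8 for Apoa5, 92.8 for Apoc3, 80.9 for Apoa2, 80.4 for Mttp, 77.2 for Apoh, 67.2 for Apoc1, 50.6 for Apoa1 and 38.9 for Apoa4. On the scale of score per kb, with 0 where there was no island, the medians over all 15 livers were 91.6 for Apoe, 80.2 for Apoh, 79.7 for Apoa2, 79.0 for Apoc3, 75.0 for Apob, 73.0 for Apoc1, 71.1 for Apoa5, 65.6 for Mttp, 51.8 for Apoa1 and 0 for Apoa4. Neighbours in this second order were compared by a two-sided exact permutation test (sign changes within livers, n = 15, Benjamini-Hochberg over 9 pairs). This comparison was not planned, and each pair and its direction were taken from the same values that were tested. The p-values therefore describe this order and give it no independent support. Apoe exceeded Apoh (higher in 12 of 15 livers, exact permutation adjusted p = 0.00879), and Mttp exceeded Apoa1 (12 of 15, exact permutation adjusted p = 0.0381), where the zeros of livers without an island enter. Apoa4 had no island in 12 livers, so its place after Apoa1 restates presence, and in CR_3 its island was the stronger per kb (75.6 against 67.6). The other 6 neighbouring pairs did not differ beyond their spread (exact permutation adjusted p = 0.731 for each). In both orders the Apoh island was the one shared with Prkca in SD_2, CR_1, CR_2 and HF_3. The Mttp island was the one shared with Trmt10a in CR_1, HF_1, HF_3 and RD_1.

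**Figure D2:**
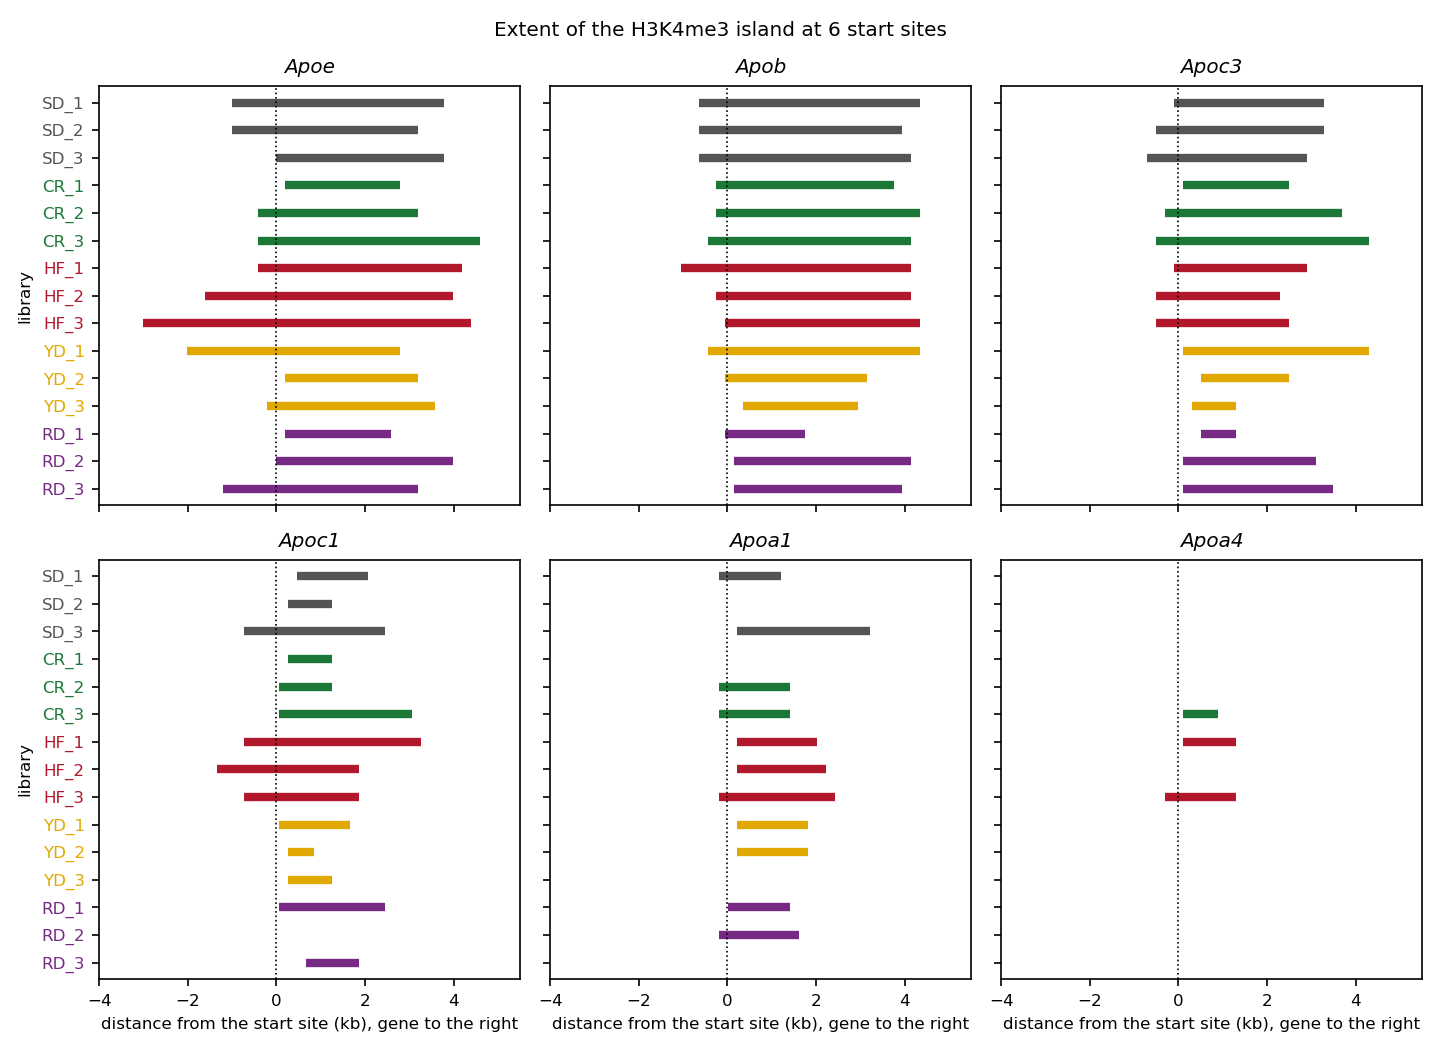
Extent of the highest-scoring island (bars, coloured by diet) about the reference TSS (dotted line, distance in kb with the gene to the right) of 6 genes in each library, with no bar where no island was found. The Apoe island reaches 3.0 kb upstream in HF_3, and the Apoc3 islands of all YD and RD mice begin downstream of the dotted line.

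The 2 diets based on corn were pooled and compared with the other 3, a contrast chosen here. The study itself asked about the anthocyanins of purple corn, the difference between RD and YD. All 10 genes had a lower mean percentile in YD and RD than in SD, CR and HF, with differences from -0.948 (Apoe) to -32.4 (Apoc1) percentile points, and none passed the test (limma, adjusted over 11200 coding genes). Apoa4 had no island in any corn mouse and entered the fit only through CR_3, HF_1 and HF_3. Its sign was therefore fixed in advance, as for any of the 11200 genes marked in no corn mouse. The mean counts 0 where there was no island, and the medians of Apoa2 ran the other way, 82.7 in the corn mice and 72.0 in the others. The sign of the mean difference turned for Apoa1 and Apoa2 with equal list lengths, for Apoa2 and Mttp without YD_3, for Apoa2 without CR_3 or when ranked among marked coding genes, and for Apoa5 without RD_1. By the same test 38.2% of all genes tested were lower in the corn diets and 0.0268% higher. Of the 10, 1 had an unadjusted p under 0.05, and 0 passed by exact permutation after adjustment, where Apoe came nearest (exact permutation adjusted p = 0.055). The median difference was -11.7 points over the 10 genes and -25.6 over all genes tested. The share called among the 10 was thus below the background, and their median difference was smaller in size. Apoc1 came nearest, with means of 72.8 in the 9 SD, CR and HF mice and 40.4 in the 6 corn mice, a difference of -32.4 ± 13.9 (SE; limma adjusted p = 0.0763). Its difference was -42.5 without RD_1 (limma adjusted p = 0.0336), -20.2 without RD_2 (limma adjusted p = 0.175) and -13.1 with equal list lengths (limma adjusted p = 0.587). With the same number of islands taken from every list, 3.46% of genes passed in place of 38.2%, and none of the 9 lipoprotein genes tested did. Apoa4 was not tested there. At so low a share, no call among 9 genes says nothing about them.

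Island width gave 1 call. Apob islands measured 3.37 ± 1.07 kb (SD, n = 6) in YD and RD and 4.62 ± 0.353 kb (SD, n = 9) in SD, CR and HF, a difference of -1.26 ± 0.407 kb (SE; limma adjusted p = 0.0305). The widths of YD_1, RD_2 and RD_3 lay within or just below the range of the other diets, and the narrow islands were those of YD_2, YD_3 and RD_1. The 10 genes had negative differences in width without exception, with a median of -0.689 kb, against -0.933 kb over all genes tested, 38.9% of which passed as narrower. For Apoa4, with no island in any corn mouse, this sign was again fixed in advance. The Apob call was lost without CR_2, HF_1, YD_2, YD_3 or RD_1 (limma adjusted p = 0.0505, 0.0542, 0.0649, 0.0850 and 0.0784), so it depended on which mice entered. Apoa5 differed by -1.73 kb (limma adjusted p = 0.0779) and Apoc1 by -1.18 kb (limma adjusted p = 0.0597). No gene of the 10 had all YD and RD mice below all other mice in percentile or in width, as 1.67% and 1.40% of genes tested did.

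**Figure D3:**
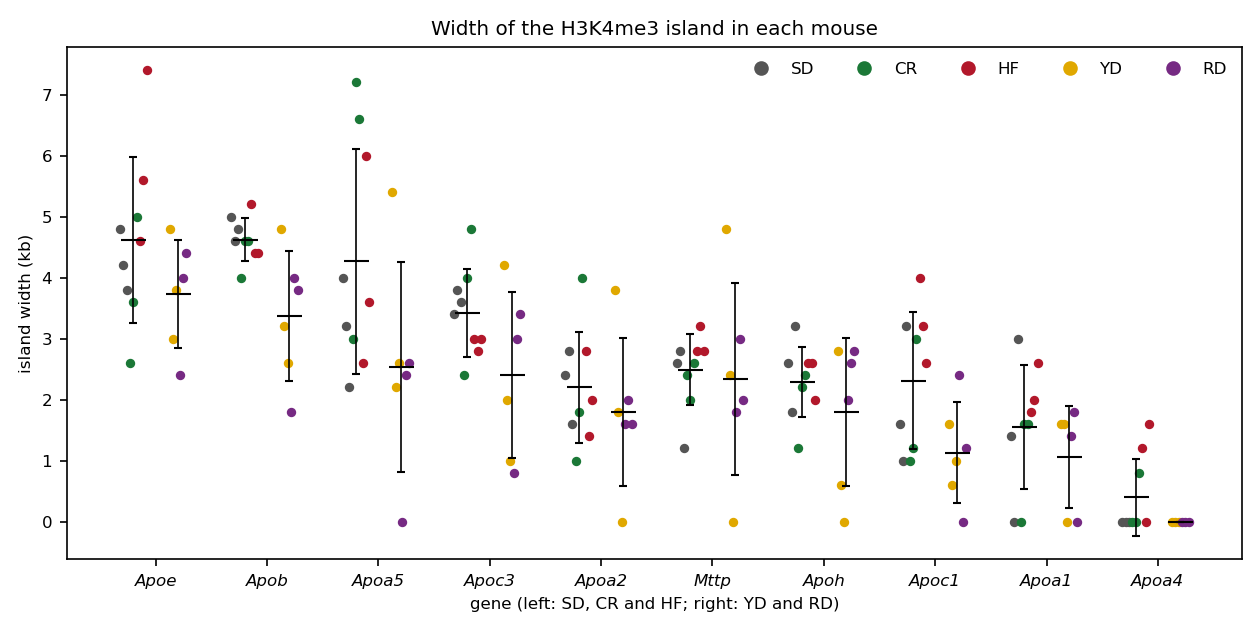
Island width in kb in each mouse (points, coloured by diet, 0 where there was no island) for the 10 genes, with the mean and SD (black bars) of the 9 SD, CR and HF mice on the left and the 6 YD and RD mice on the right of each gene. For Apob the means are 4.62 and 3.37 kb, and YD_1 lies within the range of the other diets.

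The position of the island relative to the start changed at Apoc3. From the reference TSS (46235299 on chromosome 9, negative upstream), its upstream edge lay at -101, -501 and -701 bp in SD, at 99, -301 and -501 bp in CR and at -101, -501 and -501 bp in HF. In the corn diets the edge lay downstream, at 99, 499 and 299 bp in YD and at 499, 99 and 99 bp in RD. An Apoc3 TSS thus lay inside the island in 8 of 9 SD, CR and HF mice and in no YD or RD mouse, a pattern that 1.51% of 10488 coding genes showed and that was picked out after its values were seen. Islands are built of windows of 200 bp, so 1 window separates CR_1, YD_1, RD_2 and RD_3 from SD_1 and HF_1. Under the stricter rule that a TSS must lie inside the island, Apoc3 (limma adjusted p = 0.00200) and Apob (-51.7 points, limma adjusted p = 0.0278) passed as lower in the corn diets, beside 31.8% of genes tested, and both were narrower, beside 29.9%. An island without a TSS inside counted as 0 here, so the Apoc3 call restates the pattern above. The Apob islands of YD_3, RD_2 and RD_3 counted as 0 although their percentiles were 94.5, 98.3 and 93.3. By presence under that rule, Apoc3 was lost in YD and in RD against SD (16.3% and 7.47% of 12375 genes lost, 0.186% and 0.558% gained), and Apoa1 was gained in RD against YD (6.48% gained, 0.671% lost). Apob islands held a TSS in 9 of 9 mice of the other diets and in 3 of 6 corn mice. Apoe islands held a TSS in all 6 corn mice, but the gene has 10 annotated TSSs, between 19697631 and 19699188, and from the reference TSS the island began 188 bp downstream in CR_1, YD_2 and RD_1.

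Set against SD, no diet changed any of the 10 genes past the test. In percentile, no gene was called in CR, HF, YD or RD against SD or in RD against YD (limma, lowest adjusted p = 0.998, 0.643, 0.211, 0.668 and 0.649, with 0 unadjusted p under 0.05 in each), where 6.40% of all genes fell in YD and 1.07% rose in HF. Over all genes, 0.0714% rose in CR, 0.00893% rose and 0.116% fell in RD, and 1.75% rose and 0.0179% fell in RD against YD. In width none was called either, where 1.47% of all genes were wider in HF and 0.0179% narrower in YD. The lowest adjusted p in width was 0.246, for Apoa4 in HF (limma), and 1 gene each in HF, YD and RD (Apoa4, Apoh and Apob) had an unadjusted p under 0.05. These comparisons share the SD mice and are not independent. The contrast of RD with YD, which addresses the anthocyanins of purple corn, gave a lowest adjusted p of 0.649 in percentile, for Apoh, whose value in YD_3 was 0.

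Presence gave the same picture with 1 exception. Gain meant an island in 2 or more mice of a diet and in no mouse of its reference, and loss the opposite. Only Apoa4 met the rule, gained in HF (2 of 3 mice against 0 of 3 in SD), as were 7.83% of 13044 coding genes with an island in any library (0.123% were lost). HF is also the diet with the highest mean share of marked genes (51.2%) and the highest mean number of marked endothelial and Kupffer cell markers, and their part in the gain was not tested. No gene of the 10 was lost in YD or RD, where 15.8% and 6.53% of coding genes were lost and 0.0613% and 0.368% gained.

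Over the gene clusters, the mean length covered by islands was shortest in the corn diets. No background of this length over the rest of the genome was computed, while 38.9% of all genes tested had narrower islands in these diets. The cluster of Apoa1, Apoc3, Apoa4 and Apoa5 with 2 kb on either side spans 47.3 kb, chr9:46226580-46273919. Islands covered 9.52, 8.12 and 8.80 kb of it in SD, 5.40, 11.7 and 13.3 kb in CR, 9.92, 10.1 and 12.5 kb in HF, 11.1, 5.80 and 3.60 kb in YD, and 3.60, 7.20 and 6.00 kb in RD. All RD mice lay below all SD and HF mice, while YD_1 lay among the HF mice. The mean was 6.22 ± 2.79 kb (SD, n = 6) in YD and RD and 9.94 ± 2.42 kb (SD, n = 9) in the others, a difference of -3.72 kb (two-sided exact permutation p = 0.0202, adjusted p = 0.121 over 12 comparisons). Every island there stood within 1 kb of a coding TSS, and the long stretch between Apoa4 and Apoa5 held none in any liver. The covered length includes islands counted at Zpr1 alone, by the 1 kb rule, in SD_1, SD_2, HF_1, HF_3 and RD_1. That of RD_1 lies over the 3′ part of Apoa5.

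**Figure D4:**
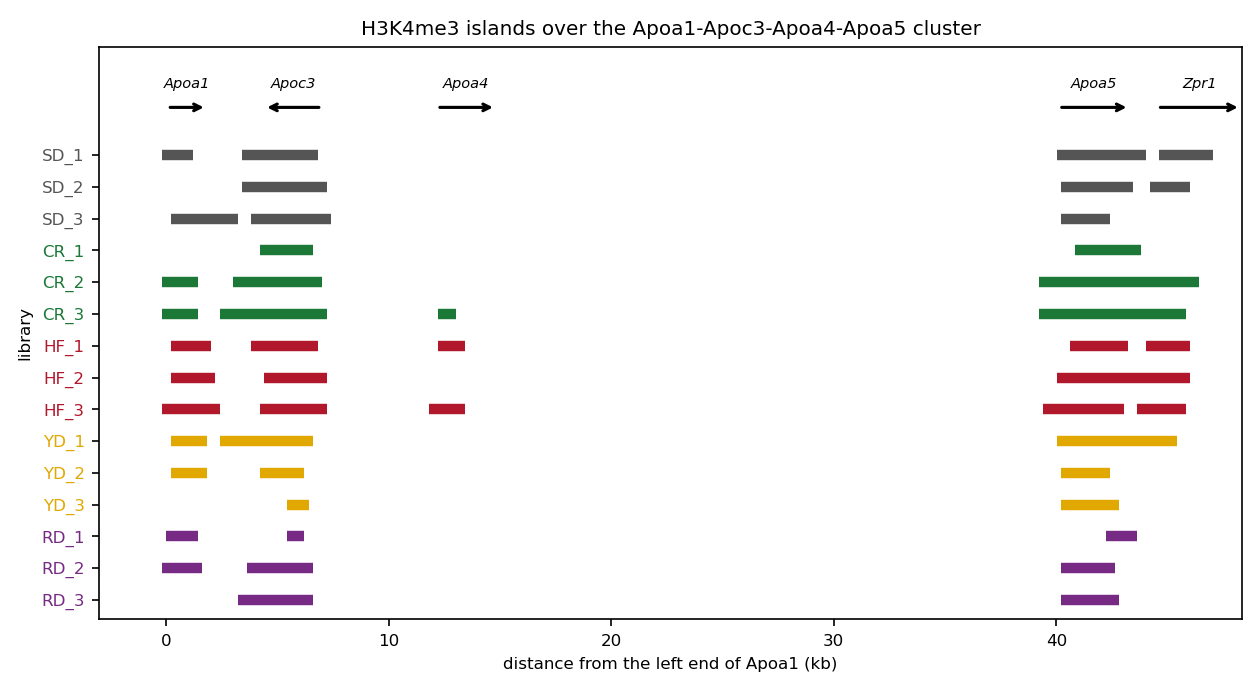
Islands (bars, coloured by diet) in each library over the cluster of Apoa1, Apoc3, Apoa4 and Apoa5, in kb from the left end of Apoa1, with arrows for the genes and the start of Zpr1 (cut at the right edge). The Apoc3 island is present in all 15 libraries, and the Apoa4 island in CR_3, HF_1 and HF_3.

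The cluster of Apoe, Apoc1, Apoc4 and Apoc2 spans 31.6 kb, chr7:19669579-19701188. Islands covered 8.80, 9.20 and 10.6 kb in SD, 6.40, 8.80 and 11.4 kb in CR, 12.6, 12.8 and 12.8 kb in HF, 10.2, 5.00 and 4.80 kb in YD, and 4.80, 6.00 and 5.60 kb in RD. The 3 HF mice were above all others, and the RD mice below all SD, CR and HF mice. The HF_1 value includes part of an island at Tomm40 alone. Corn diets had 6.06 ± 2.08 kb (SD, n = 6) against 10.4 ± 2.23 kb (SD, n = 9), a difference of -4.31 kb (two-sided exact permutation p = 0.00460, adjusted p = 0.0551). HF against SD (3.19 kb) and RD against SD (-4.07 kb) gave exact permutation p = 0.1, the smallest that 3 mice against 3 allow. The library names take 2 forms, and what these stand for is not given in the sources used here. All SD and YD libraries carry ChIP, so the form of name is partly confounded with diet. Among the 10 libraries whose names carry ChIP the difference was -4.20 kb (exact permutation adjusted p = 0.286), and -5.40 kb among the 5 with PATChIP, which hold 1 corn mouse. For the Apoa1 cluster these values were -3.19 and -6.34 kb. Both clusters passed after adjustment when CR_1 or YD_1 was left out (exact permutation adjusted p = 0.0440 and 0.0240 for the Apoa1 cluster, 0.0240 and 0.0120 for the Apoe cluster).

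Apoc2, the activator of lipoprotein lipase, and its neighbour Apoc4 differed more than Apoe did. They were marked in all 9 SD, CR and HF mice, mostly by 1 shared island that also lies at Gm44805, a gene that overlaps both. Apoc2 was marked in 2 YD mice and no RD mouse, and Apoc4 in 1 of each. A TSS of Apoc2 lay inside the island in only 4 of its 11 marked livers. The Apoc4 island of RD_2, chr7:19679201-19681200, lay over 1 kb from the Apoc2 start at 19677941 and was not counted for Apoc2. The Apoc2 percentile was 68.1, 94.9 and 86.6 in SD, 79.2, 89.5 and 97.6 in CR, 86.3, 74.3 and 74.8 in HF, and 86.0 and 52.6 in YD_1 and YD_2. It differed by -60.4 points in corn diets (limma adjusted p = 0.00243), and Apoc4 by -57.6 points (limma adjusted p = 0.0116). Both differences rest mostly on the same shared island and are not separate results. Apoe, 3 genes away in the same cluster, differed by -0.948 points (limma adjusted p = 0.840). Its values varied little, every SD and HF mouse was above every corn mouse, and exact permutation gave adjusted p = 0.055.

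**Figure D5:**
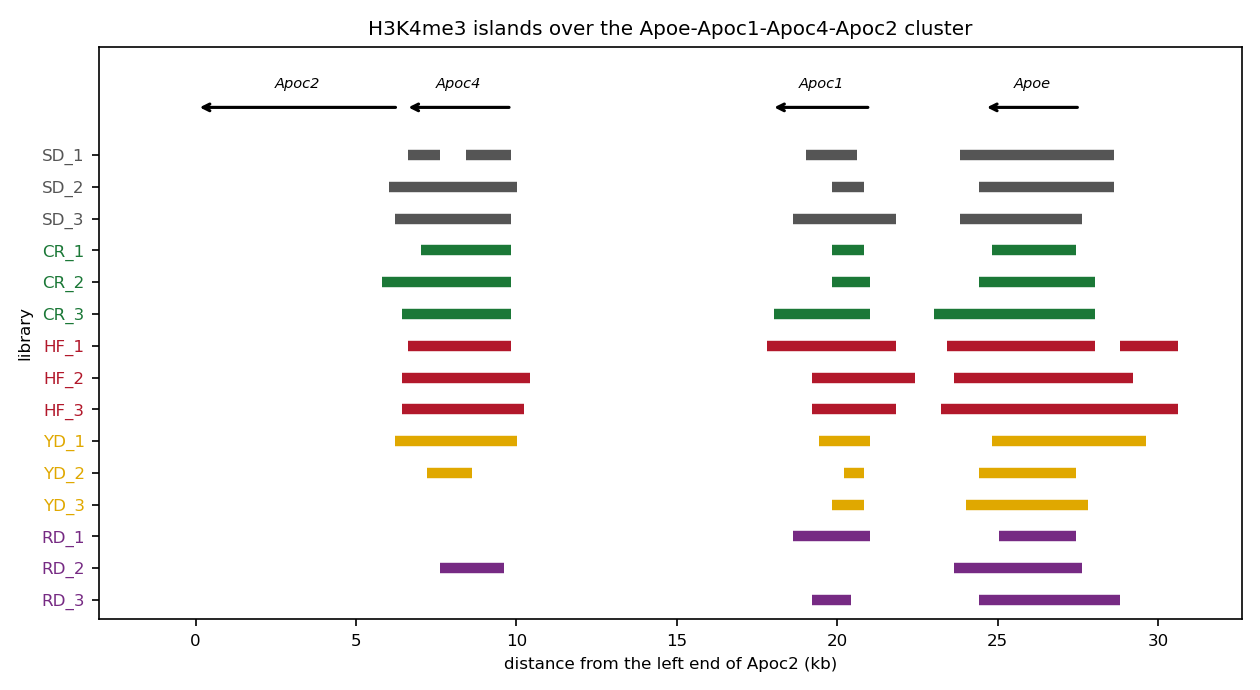
Islands (bars, coloured by diet) in each library over the cluster of Apoe, Apoc1, Apoc4 and Apoc2, in kb from the left end of Apoc2, with arrows for the genes. The Apoe island on the right is present in all 15 libraries, and the island at Apoc4 and Apoc2 is missing from YD_3, RD_1 and RD_3.

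The wider pathway was read from 4 lists. Of 13 other apolipoproteins and related genes, 10 could be tested, and 5 were lower in percentile and 2 narrower in the corn diets (median -29.2 points), among them Apoc2, Apoc4 and Apobec1 (-54.0 points, limma adjusted p = 0.0110), the enzyme that edits Apob mRNA. Apod, Saa1 and Saa2 were marked in no liver. Of 16 partners in assembly and secretion, 14 were tested, with 3 lower and 5 narrower (median -11.5 points). P4hb, which forms the transfer complex with Mttp, differed by -2.58 kb in width (limma adjusted p = 0.00538), Cideb, a lipidation factor, by -1.62 kb (limma adjusted p = 0.00679), and Dgat1, which makes triglyceride, by -1.38 kb (limma adjusted p = 0.00881). Hspa5, Canx, Surf4 and Sar1b were among several of these partners marked in all 15 livers, as were 9.46% of coding genes. Of 21 receptors, lipases and transfer proteins, 8 were lower and 10 narrower (median -24.5 points). Of 11 neighbours of the clusters, 9 were tested, with 3 lower and 3 narrower (median -24.3 points), of which Tomm40, next to Apoe, differed by -62.0 points (limma adjusted p = 0.00400). Each of these counts stands beside the 38.2% and 38.9% of all genes tested, and no list gene passed as higher or wider in corn diets.

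By presence, some list genes were gained or lost as well. Cblc was gained in CR and HF, beside 2.98% and 7.83% of coding genes gained in these diets. Lipc (hepatic lipase), marked in all 3 SD mice, was lost in CR, where 0.560% of coding genes were lost. YD lacked islands at Tomm40, Bud13, Cideb, Abcg1, Apom and Vldlr, and RD at Apoc2, Saa4, Abcg1 and Apom, all of which had them in at least 2 SD mice, beside the 15.8% and 6.53% of coding genes lost in these diets. Between the corn diets, Bud13 was gained in RD and Apoc2 and Saa4 were lost (6.36% gained and 0.406% lost over all genes). Both Apoc2 losses depend on the distance rule, since RD_2 had an island at Apoc4 over 1 kb from the Apoc2 start. Tagln and Bcam were marked in no liver.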

How the data were processed

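The data were 15 SICER2 island lists, 1 per mouse, that the authors deposited with a score per island (the sum of minus the natural log of Poisson probabilities). Per the study's methods and file names, single reads were aligned to mm10 with BWA, duplicates removed, and islands called in windows of 200 bp with gaps of 400 bp. Samples were grouped by their labels. The genes and lists were chosen with earlier results of these data known.

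TSSs came from GENCODE M21 (139486 transcripts, 53843 genes). For each gene, the highest-scoring island within 1 kb of any TSS gave a percentile within its list and a width, both 0 without an island. limma 3.58.1 (R 4.3.3) was fitted over 11200 coding genes marked in at least 3 libraries, with 5 diet means and Benjamini-Hochberg adjustment at 0.05. Single values were tested by exact permutation (scipy 1.17.1, Python 3.11.15). The named genes were the 10 genes, the cluster genes, up to 8 list genes with the smallest p, those gained or lost, and those marked in no library. A gene named by this rule is not reported here. Hspa5, Canx, Surf4 and Sar1b were named after their values were seen. The fits were tested on simulated normal values, with 200 of 11200 genes changed by 4 standard deviations. They recovered 192 in percentile and 197 in width, with 14 and 8 false calls. The simulation did not model zeros for absent islands or a shift over many genes, so it does not bear on the calls here. Depth was recovered from scores of single-window islands with an effective genome fraction of 0.74, within 0.00046 of a whole number of reads. Reads per island were not used here, so errors are those between mice and no counting interval is given. The alternatives were equal list lengths (7825), islands of at least 600 bp, TSSs within 3 kb or inside the island, no filter, other percentiles, log2 width, a term for the form of library name, the replicate block and leaving out each mouse.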

Additional observations from a re-analysis of the deposited data

How the results depend on the processing

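With a TSS required inside the island, the mean number of the 10 genes marked per library was 7.33 in both SD and CR, 5 in both YD and RD and 8 in HF, and with equal list lengths it was 7 in CR, 8.67 in HF and 7 in RD. TSSs within 3 kb gave 8.67 in RD. Genes gained or lost numbered 3 with a TSS inside the island (Apoc3 lost in YD and RD, Apoa1 gained in RD against YD), 0 with equal list lengths, and 0 to 1 when 1 mouse was left out (0 without HF_1 or HF_3). Percentile calls in corn diets numbered 2 with a TSS inside the island, 1 with a term for the form of name (Apoa4) and 0 to 1 when 1 mouse was left out (Apoc1 without RD_1), and calls against SD numbered 1 with a TSS inside the island. Apoa4 had no island in any corn mouse. Width calls numbered 2 with a TSS inside the island and 2 with the form of name (Apob and Apoc3 in both), 0 on the log2 scale, where Apob had limma adjusted p = 0.136, and 0 to 4 when 1 mouse was left out (0 without CR_2, HF_1, YD_2 or YD_3, 2 without SD_2, 3 without CR_1 and 4 without YD_1). Of differences that failed the test both ways, the sign turned positive for the Apoa1 (8.77) and Apoa2 (8.35) percentiles with equal list lengths and for Apoa2 ranked among coding genes (4.38). Leaving out 1 mouse gave percentile differences of -10.6 to 10.9 for Apoa2 (positive without YD_3, and 2.46 without CR_3), -19.3 to 3.91 for Mttp (positive without YD_3) and -20.0 to 3.44 for Apoa5 (positive without RD_1). Width differences ranged from -0.883 to 0.0667 kb for Apoa2 and from -0.756 to 0.444 kb for Mttp, both positive without YD_3. The causes were not tested. The Apoe cluster passed without the added 2 kb (-4.03 kb, exact permutation adjusted p = 0.0192). Leaving out 1 mouse gave -4.70 to -3.19 kb for the Apoa1 cluster and -5.14 to -4.01 kb for the Apoe cluster.

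Replicate numbers did not pair the mice (correlations of deviations -0.165 to 0.0722 over 30 same-numbered pairs). With the replicate block, percentile calls numbered 0 and width calls 1 (Apob), and the clusters had exact permutation adjusted p = 0.204 and 0.12. Equal list lengths kept the Apob width call and lowered the share of all genes narrower or wider to 24.7%. Without YD_3 that share was 16.1%. For single genes, an exact permutation test of each diet against SD was not run, since 3 mice against 3 cannot go below p = 0.1. The lists show where an island was called, so a change in height within an island was not measured.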
